A study of Chlamydomonas reinhardtii with 6 samples.

Results

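The LHCBM genes of the green alga Chlamydomonas reinhardtii encode the major light-harvesting proteins of photosystem II. They were taken from the deposited table by locus identifier and are 9 of its 17741 gene models. The table itself carries no gene names, so the names LHCBM1 to LHCBM9 rest on the identifiers alone. Strain CC-4532 was grown in acetate-containing TAP medium with 1000 µM manganese, against a control with 6 µM manganese. There were 3 cultures per group, and both groups shared the strain, the acetate, 24 °C and continuous light of about 50 µmol per square metre and second. All were harvested at 3000000 cells per mL, in mid-log growth, for poly-A RNA sequencing. All cultures came from 1 strain and a starter culture, so p-values measure only the spread between these flasks.

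LHCBM proteins bind chlorophyll a, chlorophyll b and carotenoids and assemble into trimers, called LHCII, that pass excitation energy to photosystem II. Part of the trimers can move towards photosystem I in state transitions, and some members take part in the thermal dissipation of excess light. Photosystem II is also where manganese is used in photosynthesis, in the cluster that oxidises water. The proteins are sorted by sequence into type I (LHCBM3, LHCBM4, LHCBM6, LHCBM8 and LHCBM9), type II (LHCBM5), type III (LHCBM2 and LHCBM7) and type IV (LHCBM1).

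Levels are in FPKM, fragments scaled to transcript length and to the size of the library. How library size was set was not given in the sources used here. They can be set side by side between genes, except where reads were divided between near-identical copies. Library depth is unknown, because FPKM does not keep it. The reads behind 1 FPKM, read from the steps between low values, relative to 6 µM replicate 1, were 0.713 to 1.03 in the 1000 µM libraries and 1 to 1.12 in the 6 µM libraries. The FPKM of all genes summed to 689724 to 767912 in the 1000 µM libraries and to 629620 to 719323 in the 6 µM libraries. The first principal component of the 12543 tested genes held 57.8% of the variance and set 1000 µM replicate 3 and 6 µM replicate 1 apart from the other 4 libraries. Their deviations from their own group means correlated at 0.75 across genes. They have different labels, nothing in the table checks those labels, and a mislabelled library would change every group difference given here. The log2 differences are therefore also given without them.

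No LHCBM gene passed the test for a difference between 1000 µM and 6 µM manganese. Of the 9 members, 0 passed an adjusted p of 0.05 in limma with Benjamini-Hochberg adjustment over all tested genes, where 0% of those genes passed. At an unadjusted p under 0.05 there were also 0 members, against a background of 2.82%. With so low a share, 0 of 9 says little about these genes in particular. Members fell under 0.05 unadjusted in 2 of 18 alternative fits. They were LHCBM8 without 6 µM replicate 2, and LHCBM6 and LHCBM9 under library quality weights, which weighted 1000 µM replicate 1 most heavily. Over all tested genes, 346 of 12538 fell under 0.05 in the first of these fits and 1272 of 12543 in the second. All 9 members had a mean of at least 1 FPKM and were tested, and none was listed at 0 or under 1 FPKM in any library. The groups overlapped for all 9 genes, while they did not overlap for 8.04% of all tested genes. In bulk RNA, fewer cells expressing a gene and less of its RNA per cell cannot be told apart.

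LHCBM1 (Cre01.g066917.v5.5, chromosome 1, 7954526 to 7956348) encodes the type IV protein, and mutants without it are impaired in the thermal dissipation of excess light. Its level was 11119, 12791 and 9542 FPKM in 1000 µM replicates 1, 2 and 3, against 9630.4, 12576 and 11784 FPKM in 6 µM replicates 1, 2 and 3. One library of each group was low, and the groups overlapped throughout. The 1000 µM cultures averaged 11151 ± 1625 FPKM, and the 6 µM cultures 11330.1 ± 1524 FPKM (SD, n = 3 each). The difference of log2(FPKM + 1) was -0.02 (SE 0.15; limma adjusted p = 1). LHCBM1 had the highest mean of all genes in the table and ranked 1 or 2 among all genes in each library.

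LHCBM2 (Cre12.g548400.v5.5, chromosome 12, 8441637 to 8443566) and LHCBM7 (Cre12.g548950.v5.5, chromosome 12, 8390064 to 8391748) form type III, and lowering them together in this alga impairs state transitions. They lie 49.9 kb apart with 11 annotated genes between them, and their proteins are nearly identical, so the authors' counting may have divided reads between them. LHCBM2 had 3781, 4316 and 2691 FPKM at 1000 µM, against 2573, 4377 and 3436 FPKM at 6 µM, in replicates 1, 2 and 3. LHCBM7 had 4675, 5530.2 and 2809.8 FPKM at 1000 µM, against 3139, 5228 and 5277 FPKM at 6 µM. For both genes 1000 µM replicate 3 and 6 µM replicate 1 were the lowest libraries, and the other 4 were intermixed. The log2 difference was 0.06 (SE 0.23) for LHCBM2 and -0.08 (SE 0.28) for LHCBM7, with a limma adjusted p of 1 for both. Added together, they reached 7934 ± 2219.6 FPKM in the 1000 µM cultures and 8010.1 ± 2039.6 FPKM in the 6 µM cultures (SD, n = 3 each). LHCBM7 was above LHCBM2 in all 6 libraries, by a ratio of 1.04 to 1.54.

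LHCBM3 (Cre04.g232104.v5.5, chromosome 4, 3996706 to 3999362) is the most abundant transcript of type I. It had 3042, 3621 and 4123 FPKM at 1000 µM, against 3529.9, 3494 and 3186 FPKM at 6 µM, in replicates 1, 2 and 3. Its highest and its lowest value both came from the 1000 µM group. The means were 3595 ± 541 FPKM in the 1000 µM cultures and 3403 ± 189 FPKM in the 6 µM cultures (SD, n = 3 each). They differed by 0.07 on the log2 scale (SE 0.14; limma adjusted p = 1).

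The other 4 type I genes lie on chromosome 6 in the order LHCBM4, LHCBM9, LHCBM8 and LHCBM6. LHCBM4 (Cre06.g283950.v5.5, 5405936 to 5407630) is 21.0 kb from LHCBM9 (Cre06.g284200.v5.5, 5428650 to 5433565). LHCBM8 (Cre06.g284250.v5.5, 5433613 to 5437765) follows LHCBM9 after 0.047 kb with no annotated gene between them, and LHCBM6 (Cre06.g285250.v5.5, 5548156 to 5550742) lies a further 110.4 kb away. LHCBM4, LHCBM6 and LHCBM8 are closely related, and lowering them together in this alga makes cells more sensitive to strong light. Reads may also have been divided between these copies, or with LHCBM9. Added together, the 4 genes on chromosome 6 reached 2496 ± 238 FPKM in the 1000 µM cultures and 2213 ± 258 FPKM in the 6 µM cultures (SD, n = 3 each). The groups of this sum overlapped, with 1000 µM replicate 3, at 2228 FPKM, inside the 6 µM range.

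LHCBM4 had 747, 793 and 629 FPKM at 1000 µM, against 540.3, 767 and 678 FPKM at 6 µM, in replicates 1, 2 and 3. LHCBM6 had 1766, 1802 and 1524 FPKM at 1000 µM, against 1332, 1530.4 and 1612 FPKM at 6 µM. LHCBM6 came closest to separated groups among these genes, with a single 1000 µM library, replicate 3, inside the 6 µM range. LHCBM4 averaged 723 ± 84.7 FPKM in the 1000 µM cultures and 662 ± 114 FPKM in the 6 µM cultures (SD, n = 3 each). LHCBM6 averaged 1697 ± 151 FPKM in the 1000 µM cultures and 1492 ± 144 FPKM in the 6 µM cultures (SD, n = 3 each). The log2 difference was 0.14 (SE 0.16) for LHCBM4 and 0.19 (SE 0.13) for LHCBM6, with a limma adjusted p of 1 for both. The unadjusted p of LHCBM6 was 0.174.

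LHCBM8 was far less abundant, with 65.0, 84.5 and 73.8 FPKM at 1000 µM, against 43.5, 91.6 and 39.0 FPKM at 6 µM, in replicates 1, 2 and 3. The 1000 µM libraries lay close together, while 6 µM replicate 2 was above all of them and the other two were below. Its means were 74.4 ± 9.78 FPKM in the 1000 µM cultures and 58.0 ± 29.1 FPKM in the 6 µM cultures (SD, n = 3 each). The log2 difference of 0.45 was the largest in the family, with an SE of 0.29, an unadjusted p of 0.156 and a limma adjusted p of 1. Without 6 µM replicate 2, its highest library, the difference was 0.83 (SE 0.15), with an unadjusted p of 0.00072 and a limma adjusted p of 0.387. Across its alternatives the adjusted p of LHCBM8 lay between 0.387 and 1. LHCBM9, which is induced by nutrient stress such as sulfur starvation, had 1.10, 1.82 and 1.28 FPKM at 1000 µM, against 1.11, 1.98 and 1.79 FPKM at 6 µM. It was the only member under 2 FPKM, and each group had a library at its lowest level, about 1.1 FPKM. The log2 difference was -0.12 (SE 0.15; limma adjusted p = 1), on a scale that understates the fold of so low a gene.

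LHCBM5 (Cre03.g156900.v5.5, chromosome 3, 2108155 to 2110445) is the type II member, whose protein is found with photosystem I in state transitions. It had 1122, 1105 and 1168 FPKM at 1000 µM, against 989, 1141 and 1089.5 FPKM at 6 µM, in replicates 1, 2 and 3. It was the steadiest gene of the family, with a coefficient of variation of 5.61% over the 6 libraries. Its means were 1132 ± 32.4 FPKM in the 1000 µM cultures and 1073 ± 77.1 FPKM in the 6 µM cultures (SD, n = 3 each). The log2 difference was 0.08 (SE 0.11; limma adjusted p = 1).

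**Figure D1:**
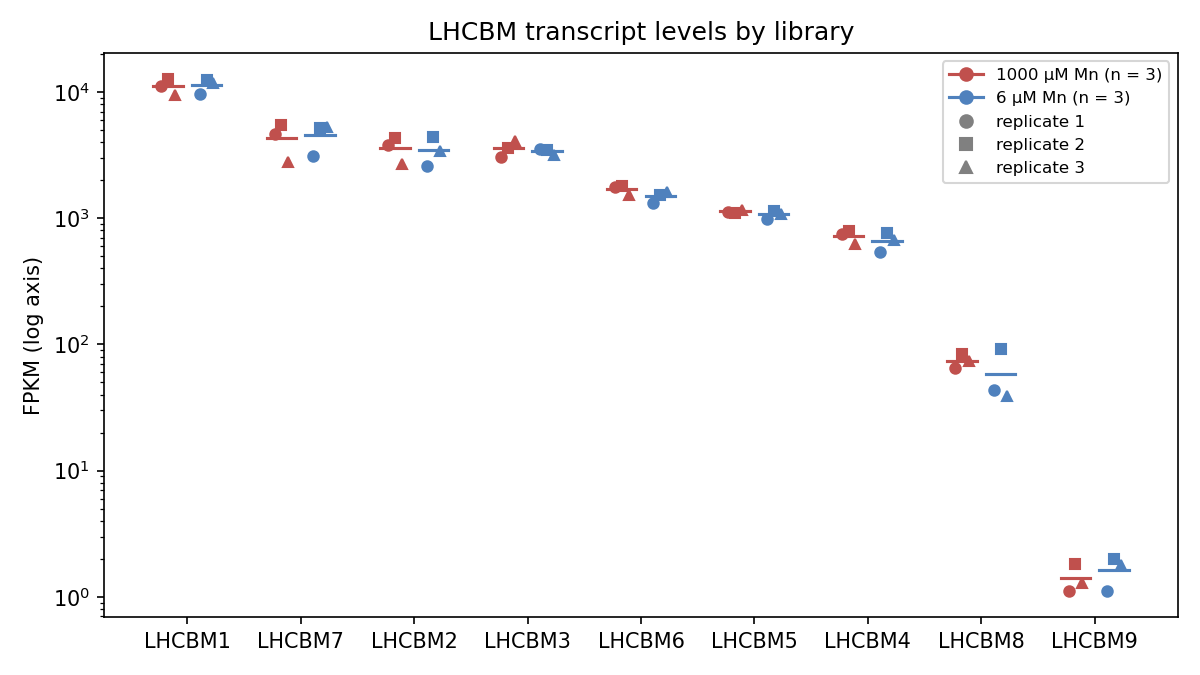
FPKM of each LHCBM gene on a log axis, with 1000 µM manganese in red left of 6 µM in blue. Points are libraries, marker shapes give the replicate number and horizontal lines the group means (n = 3). The groups overlap for all 9 genes, and the levels run from LHCBM1, at 9542 FPKM or more, down to LHCBM9, at 1.98 FPKM or less.

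The order of the levels, by the mean over all 6 libraries, was LHCBM1, LHCBM7, LHCBM2, LHCBM3, LHCBM6, LHCBM5, LHCBM4, LHCBM8 and LHCBM9. LHCBM1 was 2.23 to 3.40 times LHCBM7 within a library. The ranges of LHCBM7, LHCBM2 and LHCBM3 overlapped. Within a library LHCBM7 was above LHCBM2 in 6 of 6, whereas LHCBM2 was above LHCBM3 in 4 of 6, so LHCBM2 and LHCBM3 cannot be ranked. The ranges of all later neighbours were separate. LHCBM4 was 8.37 to 17.4 times LHCBM8, and LHCBM8 was 21.8 to 58.8 times LHCBM9. Reads divided between LHCBM2 and LHCBM7, or among LHCBM4, LHCBM6, LHCBM8 and LHCBM9, could change these ratios and ranks, and this was not tested. The same holds for the low level of LHCBM9 itself.

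The intervals bound the size of the difference for each gene. The 95% intervals of the log2 difference, unadjusted for the number of genes, ran from -0.38 to 0.33 for LHCBM1, from -0.47 to 0.59 for LHCBM2, and from -0.24 to 0.38 for LHCBM3. They ran from -0.23 to 0.50 for LHCBM4, from -0.17 to 0.33 for LHCBM5 and from -0.10 to 0.48 for LHCBM6. LHCBM7 and LHCBM8 had the widest ones, from -0.74 to 0.57 and from -0.21 to 1.11, and LHCBM9 had -0.48 to 0.23. Turned into folds of FPKM at the 6 µM level, the interval lay within a 2-fold change in either direction for 8 of 9 genes. The exception was LHCBM8, whose interval reached 2.19-fold higher at 1000 µM. A 1.5-fold change in either direction lay outside the interval for 5 genes, namely LHCBM1, LHCBM3, LHCBM4, LHCBM5 and LHCBM6.

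**Figure D2:**
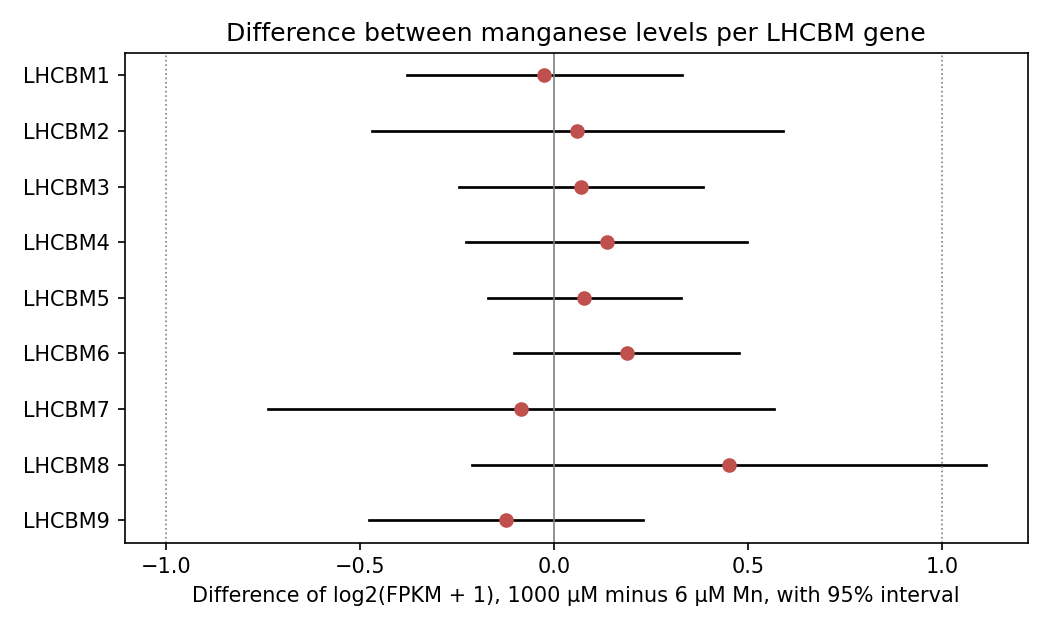
Difference of log2(FPKM + 1) between 1000 µM and 6 µM manganese per gene, positive where 1000 µM was higher. Points are limma estimates, bars are 95% intervals (n = 3 per group), and dotted lines mark -1 and 1. Every interval includes 0, and that of LHCBM8 extends to 1.11.

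The median log2 difference of the 9 members was 0.07, and 6 of 9 were above 0. Over all 12543 tested genes the median was 0.01 and 53.7% were above 0. Over the 677 genes that averaged at least 100 FPKM, a class that holds 7 of the 9 members, the median was 0.09 and 81.2% were above 0. Making library totals equal shifts all genes by a similar amount: the median of all tested genes became -0.06, and that of the members -0.02, with 3 of 9 above 0. Median-of-ratios scaling left the median of the members at 0.06, with 6 of 9 above 0. Quantile normalization gave -0.03, with 4 of 9 above 0. The sign of such small differences therefore depends on which scaling is used.

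The spread among libraries was large for some members and small for others, and it did not line up with the manganese groups. LHCBM1, LHCBM2, LHCBM4, LHCBM6 and LHCBM7 were each lower in 1000 µM replicate 3 and 6 µM replicate 1, the libraries that stood apart over all genes, than in any of the other 4. In those libraries LHCBM7 had 2809.8 and 3139 FPKM, against 4675 to 5530.2 FPKM in the other 4, and LHCBM2 had 2691 and 2573 FPKM, against 3436 to 4377 FPKM. Over all tested genes, 21.4% lay below the other 4 libraries in both, and 24.5% above. LHCBM3 did not follow LHCBM2. Its ratio to LHCBM2 was 1.53 and 1.37 in these libraries and 0.798 to 0.927 in the other 4. LHCBM3 itself was highest in 1000 µM replicate 3, and its value in 6 µM replicate 1 lay among the other 4. LHCBM5, LHCBM8 and LHCBM9 did not separate these libraries from the rest. The pair was chosen from the same table, so this is a description.

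**Figure D3:**
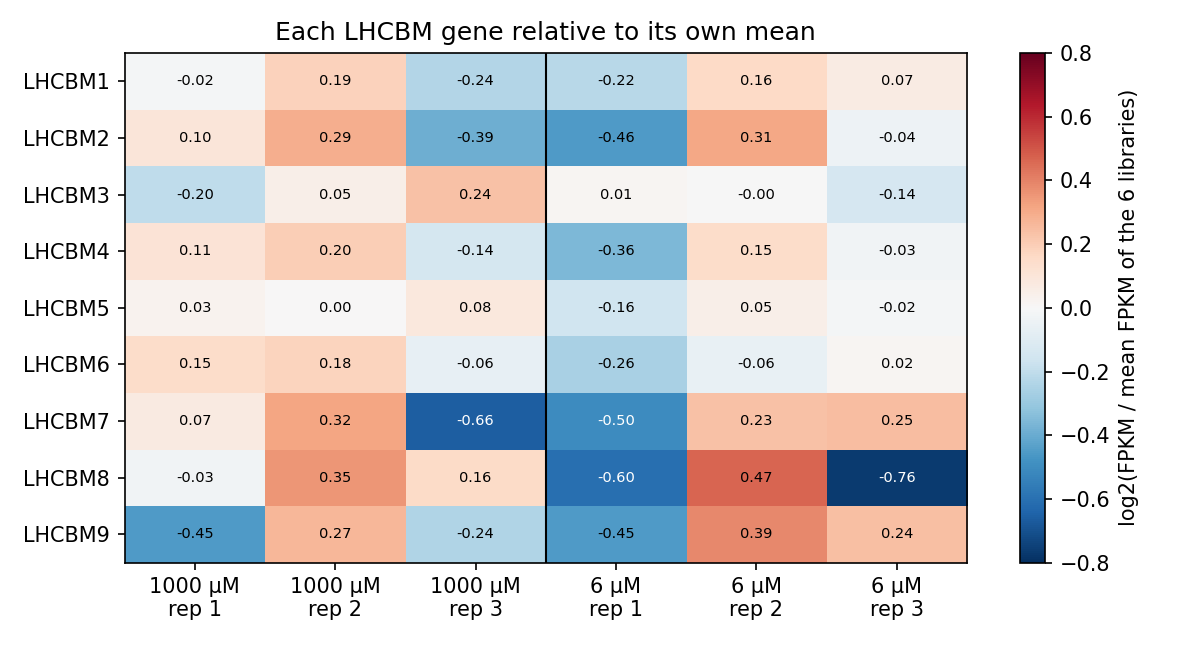
Level of each LHCBM gene (rows) in each library (columns, 1000 µM left of 6 µM) as log2 of its FPKM over its own mean of the 6 libraries, red above and blue below that mean. LHCBM1, LHCBM2, LHCBM4, LHCBM6 and LHCBM7 are lowest in 1000 µM replicate 3 and 6 µM replicate 1, where LHCBM7 had 2809.8 and 3139 FPKM, and LHCBM3 does not follow them.

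Among the same 677 abundant genes, the residual SD of LHCBM7 stood at percentile 97.8 and that of LHCBM2 at percentile 93.3. LHCBM1 stood at 64.1 and LHCBM5 at 14.9 on the same scale. Over the 6 libraries, log2(FPKM + 1) of LHCBM1, LHCBM2, LHCBM4 and LHCBM7 correlated with each other at Pearson's r from 0.82 to 0.97 across their 6 pairs. All 28 pairs without LHCBM3 had a positive r, while 5 of the 8 pairs with LHCBM3 had a negative one, down to -0.61 with LHCBM7. These values describe 6 shared libraries, share their scaling and depth, and rest in part on the libraries that stood apart.

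With both of those libraries left out, the log2 difference was -0.03 for LHCBM1, 0.06 for LHCBM2, -0.01 for LHCBM3 and 0.09 for LHCBM4. It was -0.0014 for LHCBM5, 0.18 for LHCBM6, -0.05 for LHCBM7, 0.30 for LHCBM8 and -0.24 for LHCBM9. Again 0 of 9 passed the adjusted threshold in limma, and 0 had an unadjusted p under 0.05. Between the 2 libraries of the pair, with no replicate check, it was -0.01 for LHCBM1, 0.06 for LHCBM2, 0.22 for LHCBM3, 0.22 for LHCBM4 and 0.24 for LHCBM5. It was 0.19 for LHCBM6, -0.16 for LHCBM7, 0.75 for LHCBM8 and 0.11 for LHCBM9, so LHCBM3, LHCBM5 and LHCBM9 differed in sign between the pair and the other 4 libraries. In those 4 libraries the differences of LHCBM3 and LHCBM5 were far smaller than their SEs of 0.12 and 0.10, so their sign is not resolved.

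The summed level of the family was 26318, 30046 and 22561 FPKM in 1000 µM replicates 1, 2 and 3, against 21779, 29206 and 27103 FPKM in 6 µM replicates 1, 2 and 3. The groups covered nearly the same range, with means of 26309 ± 3743 FPKM in the 1000 µM cultures and 26029 ± 3828 FPKM in the 6 µM cultures (SD, n = 3 each). As a share of all FPKM in a library, the family took 3.65 ± 0.334% at 1000 µM and 3.83 ± 0.324% at 6 µM (SD, n = 3 each).

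LHCBM1 made up a nearly constant part of the family transcripts. Its share was 42.2%, 42.6% and 42.3% in 1000 µM replicates 1, 2 and 3, against 44.2%, 43.1% and 43.5% in 6 µM replicates 1, 2 and 3. All 3 libraries at 1000 µM were below all 3 at 6 µM, and the means differed by -1.22 percentage points. The share of LHCBM4 was 2.84%, 2.64% and 2.79% at 1000 µM, against 2.48%, 2.62% and 2.501% at 6 µM. It was higher in all 3 libraries at 1000 µM, by a margin as small as 2.64% against 2.62%. These were 2 of 9 shares whose groups did not overlap. Shares have no background count to set beside this, because the 8.04% of all tested genes refers to levels. The shares of a total are not independent of each other, no test was run on them, and an exact two-sided permutation test of 3 against 3 libraries cannot give a p below 0.10.

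The other shares overlapped between the groups. LHCBM7 took 12.5% to 18.4% at 1000 µM and 14.4% to 19.5% at 6 µM. LHCBM2 took 11.9% to 14.4% at 1000 µM and 11.8% to 15.0% at 6 µM. LHCBM3 took 11.6% to 18.3% at 1000 µM and 11.8% to 16.2% at 6 µM. LHCBM3 was at its 18.3% in 1000 µM replicate 3 and at its 16.2% in 6 µM replicate 1, and under 12.1% in the other 4 libraries. LHCBM6 took 6.00% to 6.76% at 1000 µM and 5.24% to 6.12% at 6 µM. LHCBM5 took 3.68% to 5.18% at 1000 µM and 3.91% to 4.54% at 6 µM. LHCBM8 took 0.247% to 0.327% at 1000 µM and 0.144% to 0.314% at 6 µM, and LHCBM9 stayed under 0.01% in all libraries.

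**Figure D4:**
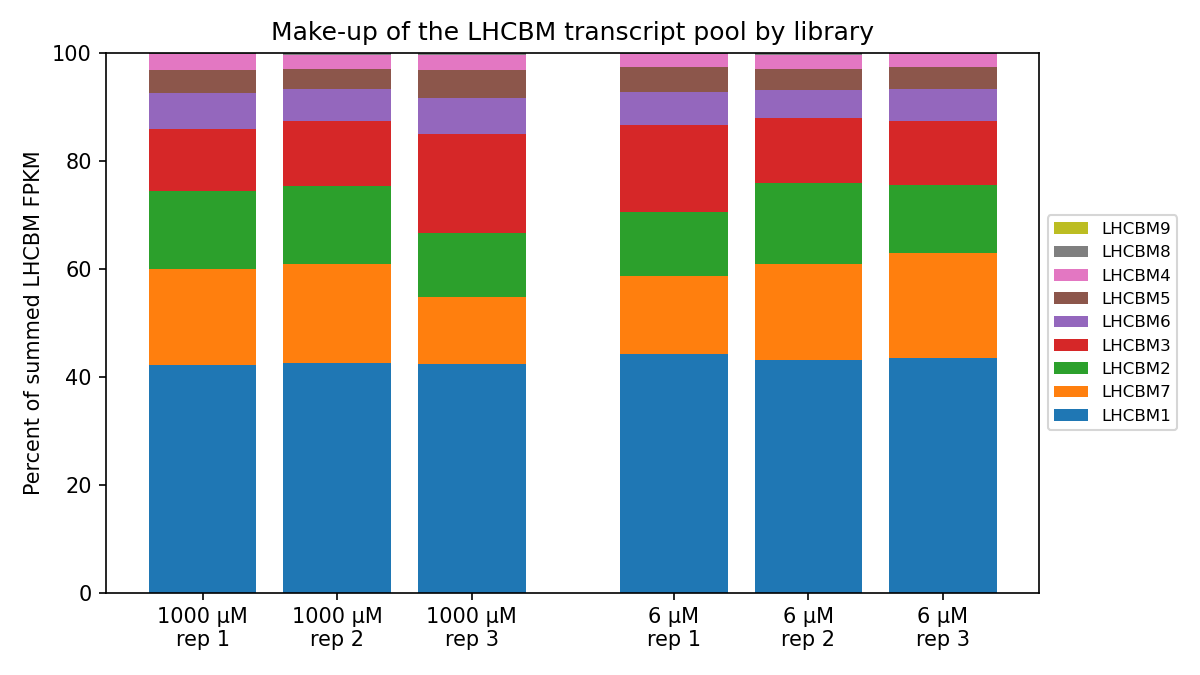
Percent of the summed LHCBM FPKM contributed by each gene, one bar per library, with 1000 µM manganese left of 6 µM. LHCBM1 takes 42.2% to 44.2% in all 6 libraries, and LHCBM3 takes 18.3% in 1000 µM replicate 3 and 16.2% in 6 µM replicate 1, its widest segments. LHCBM8 and LHCBM9 are too small to see.

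Other antenna genes were taken as a list of 18 identifiers, put together from general knowledge of the alga: 9 for the photosystem I antenna, and others for the minor photosystem II antenna, stress-related light-harvesting proteins and factors of antenna assembly and regulation. The files do not annotate them, so they are given as a group. All 18 were tested, 0 passed the adjusted threshold in limma and 0 had an unadjusted p under 0.05. Their log2 differences ran from -0.09 to 0.24 with a median of 0.04, and 12 of 18 were above 0. The identifiers on the list for the minor photosystem II antenna, Cre17.g720250.v5.5 and Cre16.g673650.v5.5, averaged 2673 and 2825 FPKM at 1000 µM, against 2657 and 2854 FPKM at 6 µM. The groups did not overlap for 2 of 18, Cre06.g268600.v5.5 with 259 FPKM at 1000 µM and 240.3 FPKM at 6 µM, and Cre01.g043350.v5.5 with 55.0 FPKM at 1000 µM and 51.1 FPKM at 6 µM. This compares with 8.04% of all tested genes. Of the 18 identifiers, 11 were lower in both 1000 µM replicate 3 and 6 µM replicate 1 than in the other 4 libraries, and 4 were higher in both, where all tested genes gave 21.4% and 24.5%. Those put down for the photosystem I antenna gave 8 of the 11 lower ones and 1 of the 4 higher ones. The other 3 higher ones were all those put down as stress-related light-harvesting proteins. Cre08.g365900.v5.5 averaged 41.7 FPKM over the 6 libraries. Cre08.g367500.v5.5 and Cre08.g367400.v5.5 averaged 1.51 and 1.71 FPKM, close to the minimum mean of 1 FPKM. The libraries that stood apart were chosen from the same data, so these counts are a description.

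Of the other 670 genes that averaged at least 100 FPKM, the 3 whose log2 level followed the LHCBM total most closely over the 6 libraries were Cre12.g483850.v5.5, Cre09.g386650.v5.5 and Cre17.g731950.v5.5. Pearson's r with the total was 0.998, 0.995 and 0.994 for these genes, and they ordered the libraries as the total did. An r above 0.9 was found for 129 of the 670 genes, with the same 6 libraries and scaling behind every value. Cre12.g483850.v5.5 (chromosome 12, 84672 to 85365) averaged 400.2 FPKM in the 1000 µM cultures and 401 FPKM in the 6 µM cultures.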

How the data were processed

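The values deposited by the authors are FPKM, 1 column a library. The submitters' processing notes name CASAVA, STAR and Cuffdiff 2.2.1. Settings, alignment build, strand handling and the handling of reads that match several copies were not given in the sources used here. Columns were assigned by the manganese level and replicate number in the sample titles. Positions come from the RefSeq gene table of assembly Chlamydomonas_reinhardtii_v5.5 by locus tag, which matched all 9 members and holds no symbols.

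From these values, log2(FPKM + 1) of genes averaging at least 1 FPKM was fitted with limma 3.58.1 in R 4.3.3 (eBayes with trend, two-sided, Benjamini-Hochberg over 12543 genes, 95% intervals from moderated standard errors). The fit was tested on simulated data with noise drawn independently for each gene and library. That test therefore did not cover a library effect shared across genes, such as the one described above. Relative depth came from the most frequent ratio of 2 libraries among genes with a mean under 0.15 FPKM. As the naming rule, all 9 members are named, plus the 3 genes of at least 100 FPKM most correlated with their total. Members, lists and alternatives were chosen with earlier results of these data known. Protein identity between members was not computed, because no sequences were at hand.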

Additional observations from a re-analysis of the deposited data

How the results depend on the processing

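No LHCBM gene (0 of 9) passed an adjusted p of 0.05 in limma under any of 18 alternatives, which changed the pseudocount, the filter, the scaling, the moderation, the weights or the libraries. The smallest adjusted p of a member was 0.387, for LHCBM8 without 6 µM replicate 2, where its log2 difference was 0.83 with an unadjusted p of 0.00072. Under library quality weights the unadjusted limma p was 0.048 for LHCBM6 and 0.034 for LHCBM9, in a fit where 1272 of 12543 genes fell under 0.05. Besides these and LHCBM8, no member fell under 0.05 in any alternative. LHCBM6 and LHCBM8 stayed higher and LHCBM9 lower at 1000 µM in each alternative, except that LHCBM9 was not tested at a minimum mean of 5 FPKM. With library totals made equal the differences were -0.027 for LHCBM2, -0.019 for LHCBM3 and -0.0093 for LHCBM5, and after quantile normalization they were -0.029 for LHCBM2 and -0.054 for LHCBM3. LHCBM3 had -0.089 under library quality weights and -0.0074 without both libraries that stood apart, where LHCBM5 had -0.0014. With 1 library left out, the log2 difference ran from -0.14 to 0.083 for LHCBM1, -0.14 to 0.26 for LHCBM2, -0.035 to 0.18 for LHCBM3, -0.0025 to 0.25 for LHCBM4 and 0.021 to 0.12 for LHCBM5. It ran from 0.11 to 0.26 for LHCBM6, -0.33 to 0.20 for LHCBM7, 0.22 to 0.83 for LHCBM8 and -0.27 to -0.023 for LHCBM9. The log2 ratio of the group means of the family total was 0.015, with -0.071 at equal library totals, -0.061 after quantile normalization and -0.098 to 0.11 with 1 library left out. The lower share of LHCBM1 at 1000 µM, -1.22 percentage points, was -0.46 after quantile normalization and -1.48 to -0.90 with 1 library left out.

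Over the whole table, 0 genes reached the adjusted threshold, against 2 at equal library totals, 26 under quality weights and 3 without both libraries that stood apart. With 1 library left out there were 0 to 2, of which 2 without 6 µM replicate 1 and 1 without 1000 µM replicate 3. An unadjusted limma p under 0.05 was reached by 354 of 12543 genes. It was reached by 618 of 16772 when low values were kept, and by 172 of 7149 averaging at least 5 FPKM. Quality weights gave 1272 of 12543, leaving out both libraries gave 638 of 12569, and leaving out 1 gave 251 to 496. The cause was not tested. Libraries that share a replicate number deviated from their group means with correlations of -0.40, 0.51 and -0.50 across genes, so they were not taken as pairs. With a replicate block, 0 genes and 0 members passed, and 306 genes had an unadjusted p under 0.05. The planned identity thresholds between copies were not run for want of sequences, and with depth unknown no counting error can be given for LHCBM9, the lowest member.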
